A study of Mus musculus with 40 samples.

Results

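The expression of 10 genes that take up, store, carry or export lipid was followed in the choroid and in the retina of mice with laser-induced choroidal neovascularization. The genes were Apoe, Abca1, Abcg1, Nr1h3, Lpl, Plin2, Soat1, Cd36, Msr1 and Apoc1. They were taken by name from the 54307 genes of the deposited table, and all 10 were found and passed the filter on low values in both tissues. The 10 were named as a functional group, not by a threshold on their values.

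The table held 40 libraries, 1 from the choroid and 1 from the retina of each of 20 mice, in 4 groups of 5 mice. All mice were C57BL/6J and homozygous for the floxed Tgfbr2 allele (Tgfbr2 fl/fl), and all received tamoxifen eye drops for 5 days from 6 to 7 weeks of age. The control mice lacked Cre, and the Tgfbr2ΔEC littermates carried 1 copy of Cdh5-CreERT2, a tamoxifen-inducible Cre driven by an endothelial promoter, so that the TGF-β receptor could be removed only from endothelial cells. In each genotype 5 mice were fed PLX5622 (+ PLX), an inhibitor of the CSF1 receptor on which mononuclear phagocytes (MP), the microglia, monocytes and macrophages, depend for survival, from the first tamoxifen dose to the end of the experiment, and 5 mice ate control food (- PLX). All mice were lasered, with 6 burns per eye, and the tissue was taken 3 days later. Only the central choroid that held the lesions was used for the choroid libraries. Mice 1 to 5 were control - PLX, mice 6 to 10 Tgfbr2ΔEC - PLX, mice 11 to 15 control + PLX and mice 16 to 20 Tgfbr2ΔEC + PLX.

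Macrophages clear modified lipoproteins and cell debris through scavenger receptors such as Msr1 and Cd36, and the cholesterol that results is either esterified by Soat1 and stored in droplets coated by Plin2 or exported by the transporters Abca1 and Abcg1 to acceptor particles such as those built on apolipoprotein E (Apoe). Oxysterols made from excess cholesterol activate the liver X receptors (LXR), of which Nr1h3 encodes LXRα, and Abca1, Abcg1, Apoe and Apoc1 are textbook targets of these receptors. In the eye several of these proteins also serve the retinal pigment epithelium, which handles lipid from photoreceptor outer segments, and the Müller glia of the retina, so that not all of these genes are confined to MP.

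In the mouse genome (GRCm39) Apoe (ENSMUSG00000002985) lay on the minus strand of chromosome 7 between 19430034 and 19434947, and Apoc1 (ENSMUSG00000040564) lay on the same strand between 19422540 and 19427328, its close neighbour. Abca1 (ENSMUSG00000015243, 53030787 to 53159900) and Plin2 (ENSMUSG00000028494, 86565912 to 86588459) were both on the minus strand of chromosome 4. Abcg1 (ENSMUSG00000024030) was on the plus strand of chromosome 17 from 31276649 to 31336969, and Nr1h3 (ENSMUSG00000002108) on the minus strand of chromosome 2 from 91014394 to 91033417. Lpl (ENSMUSG00000015568) was on the plus strand of chromosome 8 from 69284603 to 69360100, and Msr1 (ENSMUSG00000025044) on the minus strand of that chromosome from 40034726 to 40095714. Soat1 (ENSMUSG00000026600) was on the minus strand of chromosome 1 from 156252095 to 156303864, and Cd36 (ENSMUSG00000002944) on the minus strand of chromosome 5 from 17986432 to 18094067. The libraries kept strand, but Abcg1 was overlapped on its own strand by Gm55872, Nr1h3 by Acp2, Gm13783 and Gm23390, of which 1 lay on its own strand and 2 on the other, and Soat1 on the other strand by Gm37648, so that reads of Abcg1 and Nr1h3 may be shared with a neighbour.

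The promoters of Abca1 and Plin2 are shown because they are the efflux and storage genes of the group that fell with PLX5622 and whose 250 bases before the transcription start held a match to a nuclear receptor repeat. Both are given in the direction of transcription, from the GRCm39 assembly with GENCODE M39 transcript starts, and capitals mark motif matches. The motifs searched on both strands were DR4 (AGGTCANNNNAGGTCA), the repeat type that LXR dimers bind, DR1 (AGGTCANAGGTCA), the type that PPAR dimers bind, and TATAAA.
Abca1, chr4:53159901-53160150, minus strand: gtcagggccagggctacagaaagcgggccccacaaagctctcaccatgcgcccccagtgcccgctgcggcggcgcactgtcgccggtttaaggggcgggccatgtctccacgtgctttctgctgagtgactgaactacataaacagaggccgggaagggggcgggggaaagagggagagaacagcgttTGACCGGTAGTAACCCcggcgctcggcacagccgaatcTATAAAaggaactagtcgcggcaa
Plin2, chr4:86588460-86588709, minus strand: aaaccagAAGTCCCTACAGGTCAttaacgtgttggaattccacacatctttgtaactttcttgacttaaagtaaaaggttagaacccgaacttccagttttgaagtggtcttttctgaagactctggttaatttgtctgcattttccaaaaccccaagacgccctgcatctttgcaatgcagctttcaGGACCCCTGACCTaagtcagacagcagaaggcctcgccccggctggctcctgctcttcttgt
In Abca1 the capitals mark a DR4 match on the opposite strand with 3 mismatches, 62 to 47 bases before the start, and a TATAAA 24 to 19 bases before it. In Plin2 they mark a DR4 match with 2 mismatches 243 to 228 bases before the start and a DR1 match with 2 mismatches on the opposite strand 62 to 50 bases before it. Of 21770 promoters of the same length, 2.43% held a DR4 match with at most 2 mismatches and 18% one with at most 3, 2.91% held a DR1 match with at most 2, and 11.9% held TATAAA. Of the 10 genes, 1 held a DR4 match with at most 2 mismatches, 2 one with at most 3, 1 a DR1 match and 2 a TATAAA. Matches to these letters describe the sequence and do not show that a receptor was bound there.

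Values are normalized counts, the deposited gene counts after the authors' scaling for depth, on 1 scale over both tissues, and sums over all genes were 24718469 to 25956180 in the choroid and 22256892 to 24507335 in the retina. Tgfbr2 itself did not separate the genotypes in whole tissue, with 10503 ± 424.7 (SD, n = 5) in control - PLX and 10176 ± 1077 in Tgfbr2ΔEC - PLX choroids. The values therefore gave no check of the genotype labels. Markers of MP fell with PLX5622 in both tissues, 18 of 19 in the choroid, where their summed value went from 60335 to 74592 down to 16713 to 27878, and 17 of 19 in the retina, from 3124 to 7002 down to 652.5 to 881.7 (limma, adjusted p under the threshold of 0.05). Csf1r, Cx3cr1 and C1qa, defining genes of MP, were still present in the choroid after the diet, at means of 3964, 142.2 and 516 normalized counts against 8035, 1553 and 5220 without it. Among the other cell types 6 of 10 endothelial markers, 2 of 10 each for mural and Schwann cells and 1 of 10 each for fibroblasts and melanocytes rose in the choroid with PLX5622, 1 of 10 each for the retinal pigment epithelium and Müller glia fell, and no adipocyte, skeletal muscle or neural retina marker passed the test. Neural retina RNA was present in the choroid libraries in unequal amounts, with a mean marker score (mean log2 value of 10 markers) of 12.09 in Tgfbr2ΔEC - PLX against 9.63, 9.72 and 9.89 in the other groups, and 12.89 in mouse 15, above all other choroids of its group.

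The first comparison asked how the lipid genes of the lesioned choroid stood when MP were depleted. With PLX5622, 6 of the 10 genes fell in the choroid over both genotypes, beside 7.13% of 23619 genes tested that changed in either direction and 5.06% that fell. The scavenger receptors Msr1 and Cd36 fell most, to 15.1% and 35.9% of the mean without PLX5622, followed by the lipoprotein lipase Lpl (48.2%), Apoe (61.1%), the droplet protein Plin2 (62.5%) and the exporter Abca1 (77.1%). The remaining 4, Apoc1 (52.2%), Abcg1 (67.9%), Soat1 (74.4%) and Nr1h3 (97.3%), did not pass the test. The difference was below 0 in all 10 genes, with a median of -0.70 on the log2 scale against 0.0005 over all genes tested. In whole tissue, fewer cells of a type and less RNA per cell cannot be told apart, and the summed MP markers moved with these genes as given above. Their part in the results was not tested.

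**Figure D1:**
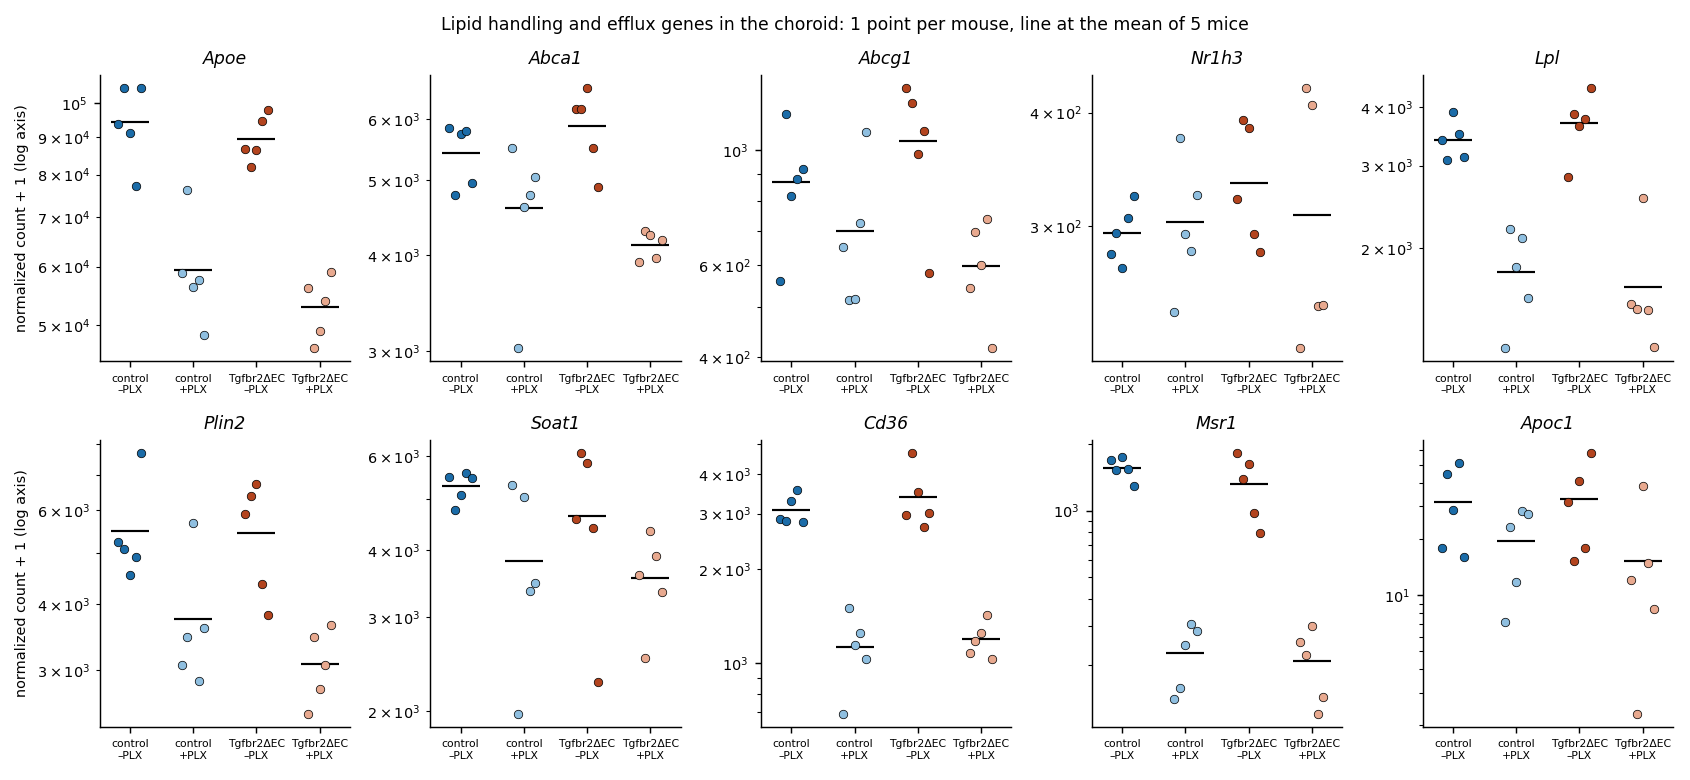
Normalized counts plus 1 of the 10 genes in each of the 20 choroid libraries (points; log axes whose ranges differ between panels), by genotype and diet, with a line at the mean of 5 mice. The + PLX points of Apoe, Lpl, Cd36 and Msr1 all sit below the - PLX points, while those of Nr1h3 and Soat1 overlap.

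Msr1, the class A scavenger receptor of macrophages, was 1697, 1522, 1738, 1538 and 1286 normalized counts in control - PLX choroids and 1822, 1393, 1631, 978.4 and 788.6 in Tgfbr2ΔEC - PLX choroids. In + PLX choroids it was 140.2, 156.4, 247.1, 305 and 284.5 in control and 253.9, 220.3, 300.2, 120 and 143.4 in Tgfbr2ΔEC mice. Every mouse on the drug lay below every mouse without it, and the highest treated value was less than the lowest untreated one by a wide margin. The difference was -2.76 on the log2 scale (SE 0.19, 95% confidence interval -3.15 to -2.36, limma, adjusted p = 1.29e-09), a level 6.76-fold lower.

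Cd36, a receptor for oxidized lipoproteins and long-chain fatty acids that endothelial cells and the pigment epithelium also carry, was 2873, 2837, 3299, 3553 and 2817 in control - PLX and 2978, 4681, 3505, 2728 and 3012 in Tgfbr2ΔEC - PLX choroids. With PLX5622 it was 691.9, 1503, 1142, 1252 and 1029 in control and 1075, 1176, 1249, 1430 and 1035 in Tgfbr2ΔEC choroids. The diets did not overlap in either genotype, and the treated Tgfbr2ΔEC mice were tightly grouped. The log2 difference was -1.49 (SE 0.12, 95% confidence interval -1.74 to -1.24, limma, adjusted p = 1.14e-08), or 2.80-fold lower.

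Lpl, the lipase that frees fatty acids from triglyceride-rich lipoproteins, was 3404, 3087, 3912, 3503 and 3137 in control - PLX and 2830, 3862, 3645, 3768 and 4409 in Tgfbr2ΔEC - PLX choroids. It was 1218, 2189, 1820, 2098 and 1557 in control + PLX and 1515, 1479, 2554, 1469 and 1224 in Tgfbr2ΔEC + PLX choroids. The diets again did not overlap, with mouse 18 the highest of the treated mice. Lpl fell by 1.08 on the log2 scale (SE 0.12, 95% confidence interval -1.34 to -0.83, limma, adjusted p = 2.12e-06), or 2.12-fold. Adipocytes also make this enzyme, and their marker score moved with it across the 20 choroids as given further on. With that score as a covariate, an alternative chosen after seeing the data, the Lpl difference was -1.06 (limma, adjusted p = 9.89e-08). The mean score hardly differed between the diets (6.406 without and 6.352 with PLX5622 in control, 6.201 and 5.959 in Tgfbr2ΔEC mice), so that the covariate had little room to move the difference, and the part of adipocytes in it was not tested.

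Apoe encodes an apolipoprotein that accepts exported cholesterol. Control - PLX choroids held 93796, 105004, 91074, 77289 and 104744 normalized counts and Tgfbr2ΔEC - PLX choroids 86779, 81799, 86462, 94628 and 97785. Control + PLX choroids held 58894, 76223, 56218, 57491 and 48463 and Tgfbr2ΔEC + PLX choroids 56120, 46501, 49085, 53954 and 58973. The highest treated mouse, mouse 12, stood just under the lowest untreated one, mouse 4, so that the diets did not overlap. Apoe fell by 0.72 on the log2 scale (SE 0.08, 95% confidence interval -0.89 to -0.55, limma, adjusted p = 2.27e-06), or 1.64-fold. Its neighbour Apoc1, a small apolipoprotein, was scarce, at 14.27 to 57.23 normalized counts without and 1.318 to 37.58 with PLX5622, and its difference of -1.10 had a wide interval (95%, -1.99 to -0.20, limma, adjusted p = 0.150).

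Abca1, which loads cholesterol onto lipid-poor apolipoproteins, was 5845, 4785, 5739, 5802 and 4959 in control - PLX and 6188, 6199, 6601, 5505 and 4908 in Tgfbr2ΔEC - PLX choroids. It was 5506, 3024, 4620, 4790 and 5048 in control + PLX and 3915, 4292, 4244, 3968 and 4184 in Tgfbr2ΔEC + PLX choroids. Of the treated mice, 7 of 10 lay below every untreated mouse, and the overlap came from control mice. Abca1 fell by 0.38 on the log2 scale (SE 0.09, 95% confidence interval -0.57 to -0.20, limma, adjusted p = 0.00695), or 1.31-fold.

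Abcg1, the companion transporter that exports to mature lipoprotein particles, ranged from 559 to 1320 normalized counts without and from 414.6 to 1086 with PLX5622, with 4 of 10 treated mice below every untreated mouse. Its difference of -0.55 (95% confidence interval -0.90 to -0.20) stood at the edge of the threshold (limma, adjusted p = 0.0527). It passed with a filter at a mean of 10 (adjusted p = 0.0448), with TMM scaling (0.047) and without any 1 of mouse 1, 10, 15 or 19 (0.00913 to 0.049). Nr1h3 was 268.9 to 391.9 without and 219.5 to 425.2 with PLX5622, a difference of -0.07 (95% confidence interval -0.32 to 0.19, limma, adjusted p = 0.837).

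Plin2, which coats lipid droplets in most cell types, was 5236, 5085, 4529, 4908 and 7699 in control - PLX and 5899, 6393, 6724, 4356 and 3816 in Tgfbr2ΔEC - PLX choroids. It was 3076, 3462, 5689, 2860 and 3612 in control + PLX and 2488, 3465, 2772, 3069 and 3654 in Tgfbr2ΔEC + PLX choroids. In this gene 9 of 10 treated mice lay below every untreated mouse, the exception being mouse 13. Plin2 fell by 0.68 on the log2 scale (SE 0.13, 95% confidence interval -0.96 to -0.41, limma, adjusted p = 0.00178), or 1.61-fold. Soat1, which makes the cholesteryl esters of those droplets, was 2269 to 6092 without and 1979 to 5297 with PLX5622, a difference of -0.44 (95% confidence interval -0.80 to -0.07, limma, adjusted p = 0.162). Only 1 treated mouse lay below all untreated mice in Soat1, where mouse 10 was the lowest without the drug, and without that mouse Soat1 passed the test (-0.56, limma, adjusted p = 0.0228).

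An exact two-sided permutation test within genotype, 1 of 100 run for the 10 genes, gave the smallest p that its relabellings allow, 3.15e-05, for Apoe, Lpl, Cd36 and Msr1. The same exact test gave 0.000441 for Plin2, 0.000472 for Abca1, 0.0106 for Abcg1, 0.0230 for Apoc1, 0.0327 for Soat1 and 0.602 for Nr1h3. These p-values are unadjusted, and the calls rest on the limma values adjusted over all genes, which Abcg1, Apoc1, Soat1 and Nr1h3 did not pass. The 6 genes that fell did so with each mouse left out in turn, and the p-values measure the spread between these mice, 1 library per mouse and tissue. The plot of differences by tissue shows the fitted values side by side.

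**Figure D2:**
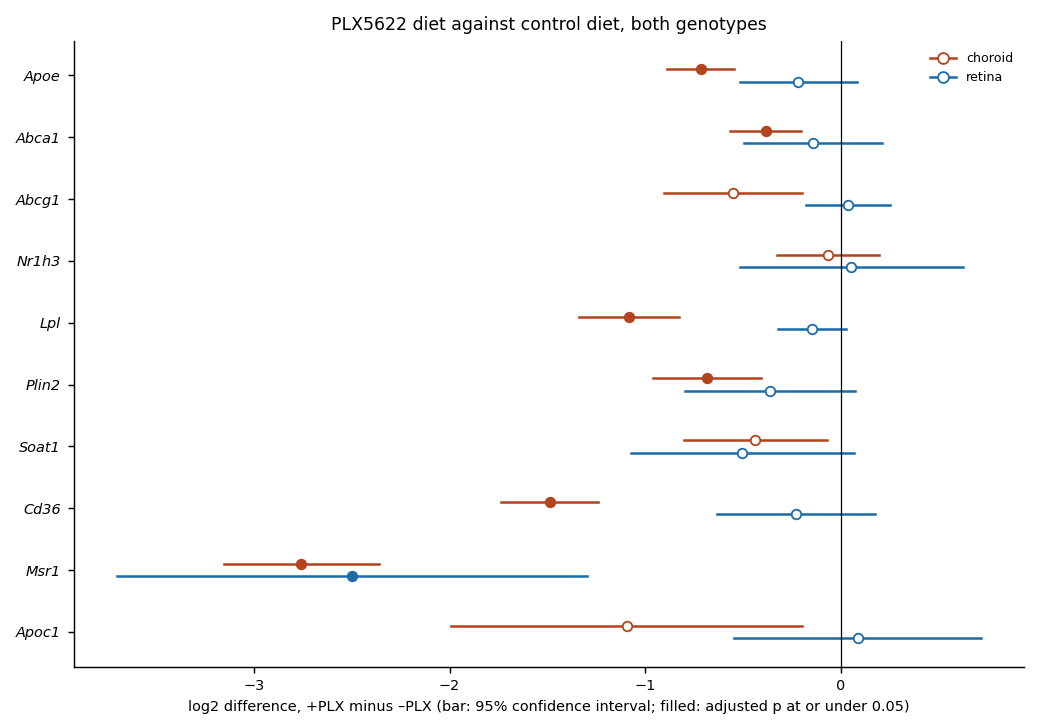
Log2 difference between + PLX and - PLX mice over both genotypes for each of the 10 genes in the choroid and in the retina (points, with 95% confidence intervals as bars). In the choroid 6 intervals belong to genes that passed the test, from -0.38 in Abca1 to -2.76 in Msr1, while in the retina only Msr1 passed.

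Within the control mice alone 4 of the 10 genes fell in the choroid, Apoe (-0.67), Lpl (-0.97), Cd36 (-1.49) and Msr1 (-2.83), beside 3.75% of all genes called. Within Tgfbr2ΔEC mice 6 fell, beside 4.06% of all genes, namely Apoe (-0.76), Abca1 (-0.51), Lpl (-1.20), Plin2 (-0.79), Cd36 (-1.48) and Msr1 (-2.68). A difference between the genotypes was not shown. The interaction of diet and genotype was called for 0 of the 10 genes and 0 of all genes (limma), with 0 of the 10 and 1552 of all genes at an unadjusted p under 0.05. The interaction in Abca1 was -0.24 (95% confidence interval -0.61 to 0.12) and in Plin2 -0.22 (-0.78 to 0.33). In Plin2 the control comparison turned on mouse 13, without which it passed (-0.74, adjusted p = 0.0149, against -0.57 and 0.118 with it). In Tgfbr2ΔEC mice the calls of Abca1 and Plin2 were lost without mouse 6, 8 or 16, that of Abca1 also without mouse 19, and both when the neural retina score entered the model (adjusted p = 0.0821 and 0.0667), where the differences themselves were no smaller, at -0.54 in Abca1 and -0.85 in Plin2. The call of Plin2 was also lost, at an adjusted p that rounds to 0.05, when the pigment epithelium score entered the model (-0.74).

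Of 86 other genes of lipid handling, arranged in 6 lists, 13 fell and 1 rose in the choroid with PLX5622, to be read against the 7.13% of all genes called and the 5.06% that fell. The lists were chosen with earlier results of these data known, and that of the receptors holds macrophage genes. The counts are therefore not read as an excess of lipid genes. Of the lipoprotein and scavenger receptors 6 of 13 fell, with a list median of -0.20. Cd68, the macrosialin of macrophage lysosomes, went from a mean of 3958 to 1410 normalized counts (log2 difference -1.52), and Trem2, a lipid-sensing receptor of myeloid cells, from 1619 to 437.8 (-1.95). Stab1, a clearance receptor of macrophages and endothelium, went from 10351 to 2299 (-2.22), and Olr1, a receptor for oxidized LDL, from 59.12 to 15.98 (-1.84). The other 2, named after their values were seen, were Marco (-1.92) and Cd5l (-4.10), both scarce macrophage genes. The general receptors Vldlr, Lrp1 and Scarb1 did not pass the test.

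In the list of lysosomal and oxysterol genes 5 of 10 fell, with a median of -0.20. They were Lipa, the lysosomal acid lipase (-0.58, from 5361 to 3589 normalized counts), Npc1, which exports cholesterol from lysosomes (-0.26, from 2538 to 2121), Ch25h, which makes the oxysterol 25-hydroxycholesterol (-0.90), Stard3, a late endosomal sterol carrier (-0.24), and Nceh1, a cholesteryl ester hydrolase (-0.22). In the next 3 lists the 1 call each was close to the share over all genes, and nothing is read about the lists. Of 16 LXR partners and targets Apoc2, the activator of lipoprotein lipase, fell (-2.46, from 153.3 to 38.24), and Nr1h2, Rxra, Srebf1, Mylip and Pltp did not pass, the list median being -0.01. Of 12 genes of fatty acid binding and PPAR signalling Fabp5 fell (-0.74, list median -0.03). Of 19 lipases and droplet proteins 1 rose, Mgll, the monoglyceride lipase (0.29, limma, adjusted p = 0.0151, list median 0.13). None of 16 genes of sterol synthesis was called (limma), with 2 at an unadjusted p under 0.05 and a list median of 0.11.

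**Figure D3:**
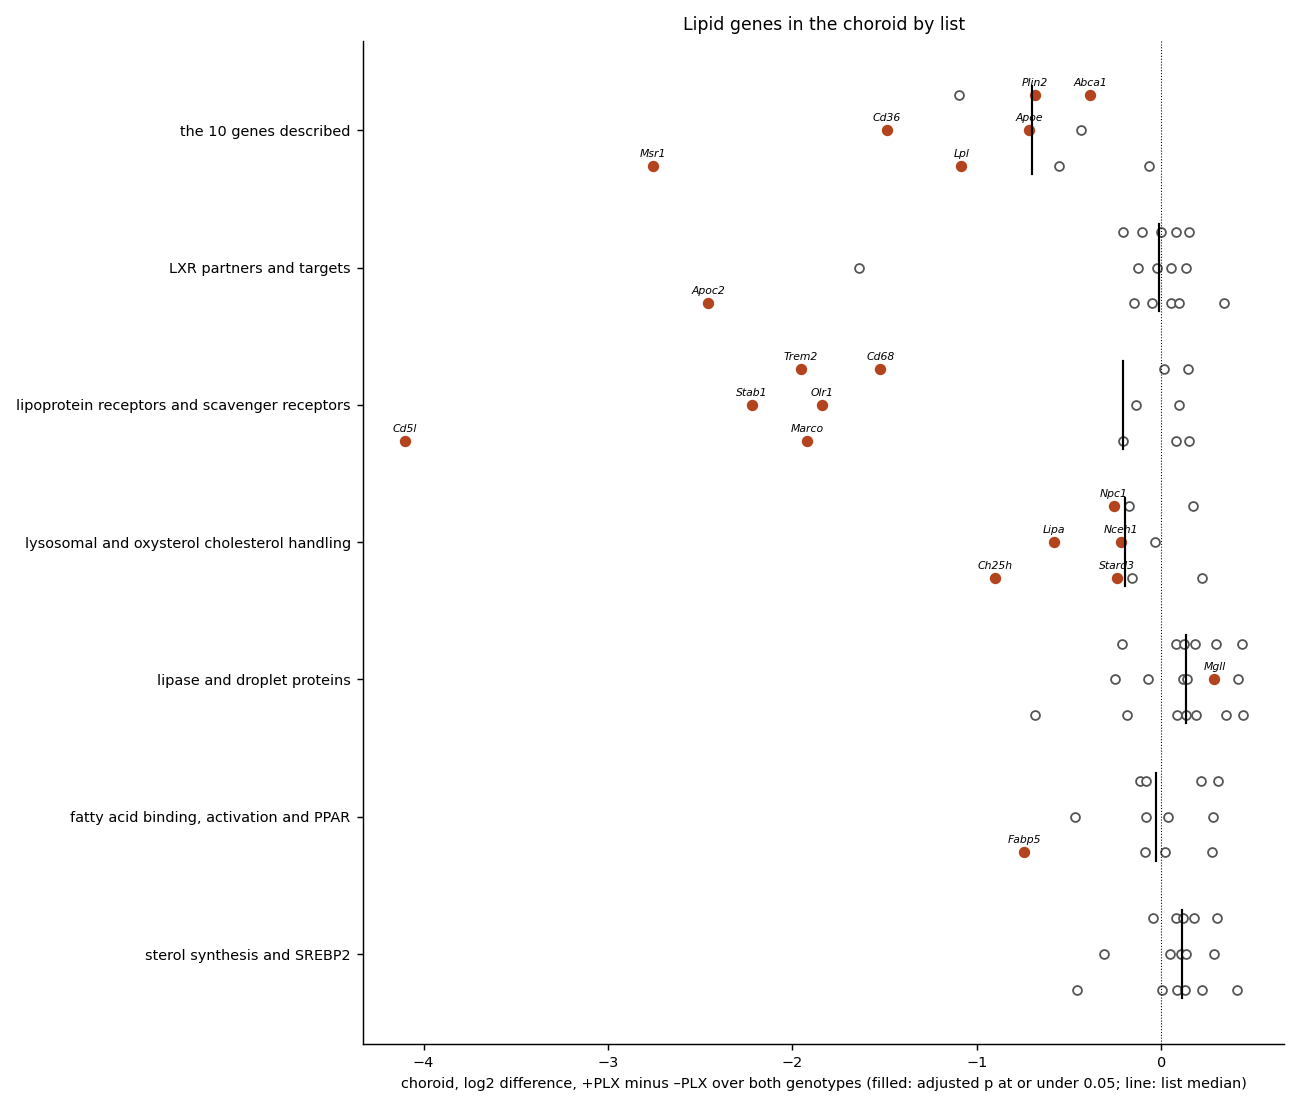
Log2 difference between + PLX and - PLX choroids for the 10 genes and the 86 other lipid genes by list (points; filled and named where the gene passed the test), with a line at each list's median. Called genes were 6 of 13 receptors, 5 of 10 lysosomal and oxysterol genes, 1 gene in each of 3 lists and 0 of 16 genes of sterol synthesis, where 7.13% of all genes were called, and the lists were not tested against each other.

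In the retina PLX5622 lowered 1 of the 10 genes, Msr1, beside 1.09% of 23243 genes called. Msr1 was 23.52, 20.46, 69.72, 8.213 and 39.25 normalized counts in control - PLX and 128.6, 6.163, 28.03, 5.097 and 1.282 in Tgfbr2ΔEC - PLX retinas. It was 2.05, 1.809, 5.965, 12.89 and 2.652 in control + PLX and 2.275, 2.665, 0, 0.6203 and 1.653 in Tgfbr2ΔEC + PLX retinas. With the drug 7 of 10 retinas stood at or under the value of 3 reads, as did 1 of 10 without it, so that the gene was at the limit of this depth, and the groups overlapped. The difference was -2.50 (SE 0.58, 95% confidence interval -3.70 to -1.30, limma, adjusted p = 0.0318), on a scale with a pseudocount of 1, which understates it at these levels. Within 1 genotype Msr1 did not pass in the retina, and 0 of the 10 genes were called (limma; 2 in control and 1 in Tgfbr2ΔEC mice at an unadjusted p under 0.05), beside 0.736% of all genes in control and 0.516% in Tgfbr2ΔEC mice. The call was lost with a pseudocount of 5 (adjusted p = 0.0682), with all genes above 0 in the fit (0.058) and without any 1 of 10 of the mice (0.0529 to 0.0784).

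**Figure D4:**
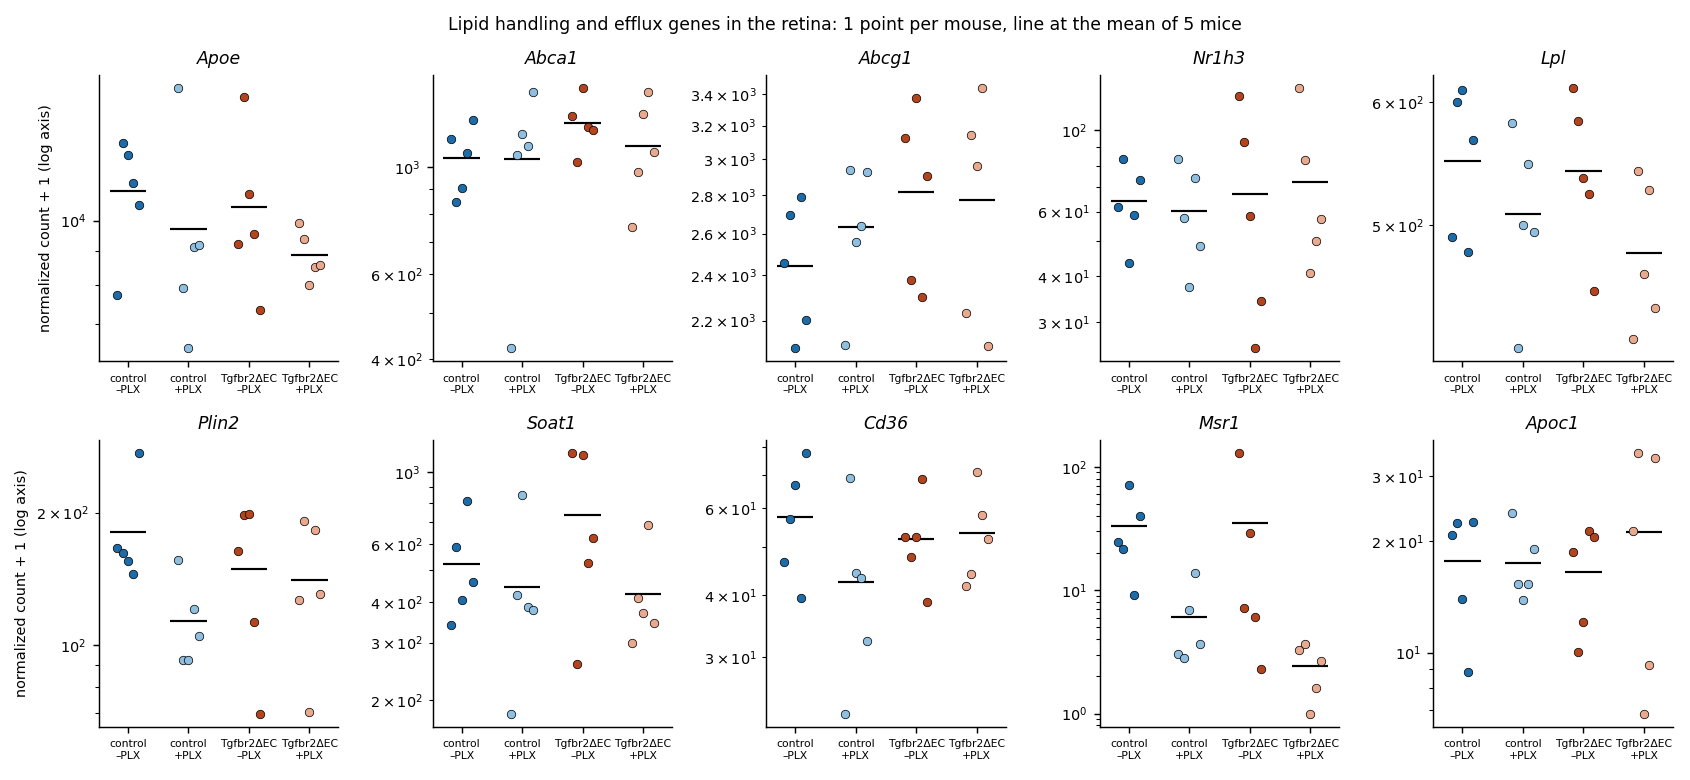
Normalized counts plus 1 of the 10 genes in each of the 20 retina libraries (points; log axes whose ranges differ between panels), by genotype and diet, with a line at the mean of 5 mice. Msr1 was at 12.89 or less in every + PLX retina, and all 10 genes, Msr1 among them, overlapped between the diets.

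The other 9 genes lay between -0.50 (Soat1, 95% confidence interval -1.07 to 0.07) and 0.09 (Apoc1, -0.55 to 0.72) in the retina and did not pass, and the median of the 10 was -0.18. Retinal Apoe went from 10770 ± 2462 (SD, n = 10) to 9292 ± 2491, Abca1 from 1138 ± 183.7 to 1072 ± 307.4, Lpl from 544.8 ± 57.67 to 492.6 ± 56.48 and Cd36 from 53.85 ± 12.89 to 46.94 ± 15.16 normalized counts, each within 1 SD. For Apoe the interval of the difference reached from -0.52 to 0.08, and for Cd36 from -0.63 to 0.17. Retinal MP markers had fallen by a median of -5.31, with 2 or 3 of 19 at 0 in all mice of a + PLX group. Of the other lipid genes Trem2 (-5.40, from 70.38 to 0.9438), Cd68 (-2.27, from 93.07 to 18.98) and Ch25h (-2.13) fell in the retina, which made 2 of 10 tested receptors and 1 of 10 lysosomal and oxysterol genes, and none was called in the other 4 lists (limma), where 0 to 3 genes of a list had an unadjusted p under 0.05. Within Tgfbr2ΔEC mice alone Dgat2, which makes triglyceride and was named after its values were seen, rose in the retina with PLX5622 (0.97, limma, adjusted p = 0.0108), against 0.01 in control mice, and its interaction of diet and genotype did not pass (0.96, adjusted p = 1).

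Whether the diet acted alike in the tissues was tested by the interaction of tissue and diet. It was called for 2 of the 10 genes, beside 1.37% of 24317 genes. Cd36 differed by -1.26 (limma, adjusted p = 0.000425) and Lpl by -0.94 (adjusted p = 9.80e-05), both with the larger fall in the choroid. For Apoe (-0.50, adjusted p = 0.184) and Msr1 (-0.26, adjusted p = 0.970) a difference between the tissues was not shown. Of the other lipid genes 6 were called, with the larger fall in the choroid for Stab1 (-1.84), Fabp5 (-0.79) and Npc1 (-0.27) and in the retina for Trem2 (3.44). The other 2, Cd5l and Marco, had means of 0.8813 and 0.09324 normalized counts in - PLX retinas, under the value of 3 reads, so that no fall could have been seen there and their calls compare nothing between the tissues. Stab1 was 96.15 ± 36.69 (SD, n = 10) in - PLX and 101.5 ± 104.3 in + PLX retinas.

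The levels also set the tissues apart. Without PLX5622, 9 of the 10 genes were higher in the choroid and Abcg1 was higher in the retina, beside 75.1% of all genes that differed. The choroid was higher by log2 differences of 6.23 in Msr1, 5.90 in Cd36, 5.10 in Plin2, 3.12 in Apoe, 3.09 in Soat1, 2.70 in Lpl, 2.39 in Nr1h3 and 2.32 in Abca1. Apoc1 was the weakest at 0.83 (limma, adjusted p = 0.0473), a call lost in 16 of 28 alternatives, among them TMM scaling, a pseudocount of 0.5 and the omission of any of 12 mice, with the lowest value without mouse 4 (0.61, adjusted p = 0.167). Abcg1 was lower in the choroid by a difference of -1.50, and by -2.09 with PLX5622, when 9 genes differed beside 75.4% of all genes.

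Per kilobase of the canonical transcript Apoe came first everywhere, at 42153 ± 4198 (SD, n = 10) in - PLX and 25764 ± 3827 in + PLX choroids and at 4938 ± 1129 in - PLX retinas. In - PLX choroids Plin2 followed at 2666, then Msr1 (1011), Cd36 (921), Lpl (864.1), Soat1 (592) and Abca1 (550.6), whose neighbours overlapped, then Abcg1 (163.5) and Nr1h3 (148.1), which overlapped each other, and Apoc1 (22.29) last. Apoe, Plin2 and Apoc1 overlapped no neighbour in that order, and neither did Abca1 and Abcg1 overlap each other. In + PLX choroids Msr1 went from rank 3 to rank 7, at 152.5 per kilobase, and Soat1 (440.4), Abca1 (424.6) and Lpl (416.1) formed an overlapping group behind Plin2 (1666). In - PLX retinas Abcg1 was second at 450.4, clear of Apoe above and of Lpl (132.4) below, against rank 8 in the choroid. Then came Abca1 (110.9), Plin2 (79.76) and Soat1 (75.02), of which each overlapped the next, and Nr1h3, Msr1, Cd36 and Apoc1 stood at 30.43 or less.

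The genotype comparison asked whether loss of TGF-β signalling in endothelial cells moved the lipid genes. Of the 10 genes 0 passed in each of the 4 comparisons of Tgfbr2ΔEC with control mice (limma), and 0 had an unadjusted p under 0.05. In the choroid 0.00423% of all genes were called without PLX5622 and 0.00423% with it, with 2184 and 889 genes at an unadjusted p under 0.05, and in the retina 0% were called in either diet, with 758 and 629 genes at that level. Without mouse 15, whose choroid was high in neural retina markers, the call count over all genes in - PLX choroids was 411 instead of 1, and still 0 of the 10 genes passed. Mouse 15 was control + PLX, in neither group compared. It entered this comparison only through the spread shared by the 4 groups and the filter on low values. In - PLX choroids the differences ran from -0.29 in Msr1 (95% confidence interval -0.85 to 0.26) to 0.24 in Abcg1 (-0.25 to 0.74). Apoe was the most closely bounded at -0.07 (-0.31 to 0.17), followed by Abca1 at 0.11 (-0.14 to 0.37), Cd36 at 0.12 (-0.23 to 0.47) and Lpl at 0.11 (-0.25 to 0.47). In + PLX choroids they ran from -0.70 in Apoc1 (-1.97 to 0.57) to 0.12 in Cd36 (-0.23 to 0.47), with Apoe at -0.16 (-0.40 to 0.08) and Plin2 at -0.24 (-0.64 to 0.15).

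**Figure D5:**
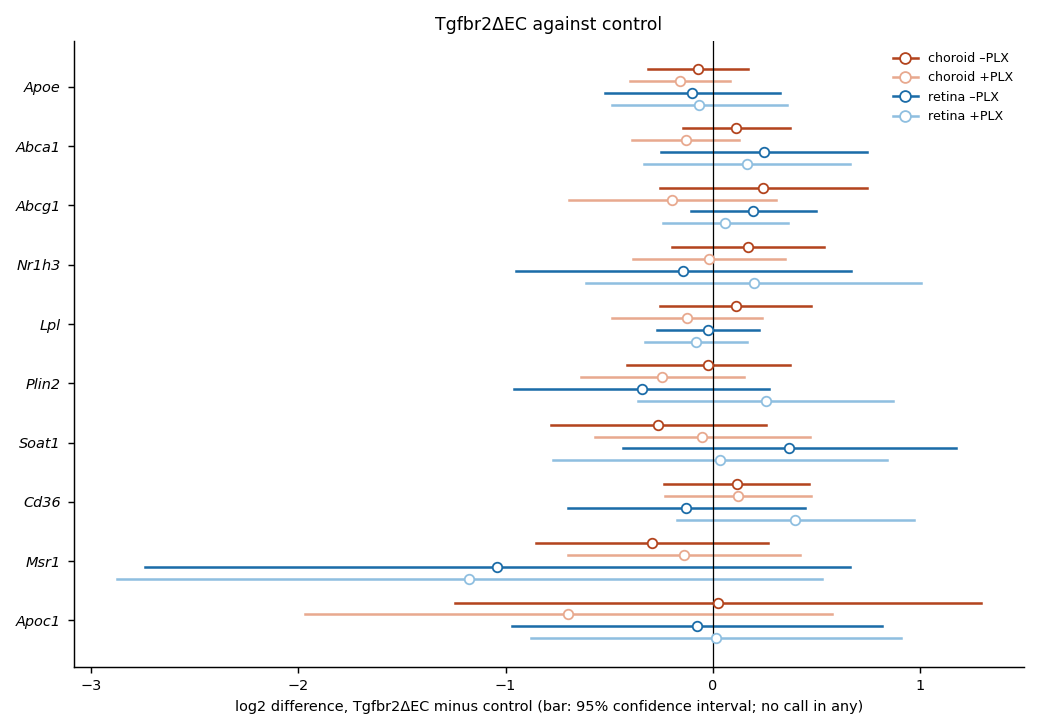
Log2 difference between Tgfbr2ΔEC and control mice for each of the 10 genes, without and with PLX5622, in the choroid and in the retina (points, with 95% confidence intervals as bars). All 40 intervals include 0, and those of Msr1 in the retina and of Apoc1 in the choroid are wide.

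In the retina the genotype differences ran from -1.04 in Msr1 (95% confidence interval -2.74 to 0.66) to 0.37 in Soat1 (-0.43 to 1.17) without PLX5622, and from -1.17 in Msr1 (-2.88 to 0.53) to 0.40 in Cd36 (-0.17 to 0.97) with it. Retinal Lpl was closely bounded in both diets, at -0.02 (-0.27 to 0.22) and -0.08 (-0.33 to 0.16). Of the 86 other lipid genes, not all of which passed the filter in the retina, none was called in the 4 comparisons (limma), with 0 to 3 genes of a list at an unadjusted p under 0.05. In - PLX choroids Ppargc1b, a coactivator of fatty acid oxidation, had the lowest p of them (1.17, adjusted p = 0.211), and Abcg4, a sterol transporter of neurons and relative of Abcg1, was 1.239 (adjusted p = 0.331). The 10 neural retina markers were higher in the same comparison by a median of 2.63, and their part in these values was not tested. These diet and genotype comparisons share their groups of mice and are not independent of one another.

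After removal of the group means, the genes whose values went most closely with each lipid gene over the 20 choroids were sought among 17597 genes with a mean of at least 10 normalized counts. The points share libraries, depth and scaling, so the values are descriptions. Lpl went with Fabp4 (r = 0.795), Phex (0.781) and Car3 (0.77), and Fabp4 and Car3 are abundant in adipocytes. Its r with the score of 10 adipocyte markers was 0.697 and with that of fibroblasts 0.61. Mouse 18, the highest in Lpl of the treated Tgfbr2ΔEC mice, also had the highest adipocyte score of its group, 8.382, where the lowest was 4.73. Abca1 went most closely with Arhgef12 (0.955), Ranbp2 (0.951) and Fam120c (0.949), Soat1 with Spg11 (0.918), Plin2 with Gsta3 (0.904), Apoe with Gnl1 (0.885), Msr1 with Sfpq (0.816) and Cd36 with Ube2g2 (0.799). Among the members Abca1 and Soat1 went together (0.724), and Abca1 and Apoe went opposite ways (-0.765 in the choroid and -0.679 in the retina).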

How the data were processed

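RNA of lasered mouse choroid and retina was sequenced from polyadenylated, stranded libraries. According to the labels and the study's methods, the authors quantified reads with Salmon 1.10.1 against GENCODE M29 (GRCm39), imported them per gene with tximport and deposited counts normalized by DESeq2 1.36.0, a signal of coverage per gene scaled over both tissues at once, as the values show. Whether the import also corrected each gene and library for transcript length is not given in the sources used here. Such a correction would make values differ from reads divided by 1 factor per library. Raw counts were not used here: low values lay within 0.1 of a whole multiple of the value of 1 read in 47.6% to 65.5% (choroid) and 42.2% to 63.0% (retina), so whole reads were not recovered and no count test was run. Depth was estimated from the steps of low values at 21603806 to 28054697 reads (choroid) and 20868523 to 30447123 (retina), with 3 reads worth 2.233 to 3.579 normalized counts, the floor used here. Floors cover counting error only.

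Of 54307 gene identifiers 53700 matched GENCODE M39, used for names, positions and transcript lengths, and 17202 genes were at 0 in all libraries. log2(normalized count + 1) of genes with a mean of at least 1 was tested with limma 3.58.1 (R 4.3.3, trended variance), with 4 groups per tissue or 8 over 40 libraries for tissue contrasts, and Benjamini-Hochberg adjustment over all genes, called at 0.05. Fold changes are on that scale and are understated for low genes. Percentages of the level without PLX5622 are ratios of mean normalized counts. Exact permutation tests over mice accompanied the members (numpy 2.4.6). With 5 against 5 mice their p cannot go below 0.0079. The authors' own tests used sex and an estimated neuronal share as covariates. The samples' own records of these were not used here, and scores of sex-linked and neural retina genes, taken from the values, stood in for them as alternatives only. Named genes were all members and, of the other lipid lists, up to 5 with the lowest p in each direction and calls numbering 5 or fewer in a list. Some genes that did not pass, such as Vldlr and Nr1h2, were named beside them. Of the 3 genes nearest each member by r in the choroid, all were named for Lpl and Abca1, and for some other members only the nearest. The members and lists were chosen with earlier results of these data known, and the members give no independent support to a pattern those results held.

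Alternatives were pseudocounts of 0.5 and 5, filters at a mean of 10 and at any value above 0, TMM scaling, fits on fewer groups, the sex, neural retina and other marker scores as covariates (adipocyte chosen after seeing the data), the mouse as a block, and each mouse left out. On simulated data of 23599 genes for the choroid diet comparison, 76.1% of 67 genes changed 1.5-fold, 98.5% of 67 changed 2-fold and 100% of 66 changed 4-fold were recovered, and 4.19% of calls were unchanged genes. The simulation gave all genes the same set spread, with no differences in tissue content between mice, and changed no scarce gene. Its shares do not carry over to genes that varied more between mice. Apoc1 is such a gene, 2.14-fold lower in the choroid with PLX5622 and not called. Choroid and retina libraries of a mouse come from the same animal: the correlation of their deviations was -0.158 to 0.289 (median 0.126).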

Additional observations from a re-analysis of the deposited data

Results flagged for a closer look

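In 6 of 80 groups of 5 mice, each 1 gene in 1 tissue, the highest or lowest mouse stood apart from the rest by more than 0.71 of the group's range. In all 6 it was the highest. Chance gives about 4 such groups, counting either end, if values are normally distributed, which counts on this scale need not be. Plin2 was high in mouse 5 in both tissues, at 7699 normalized counts against 5236 in the next control - PLX choroid (gap 0.777 of the range) and at 272.6 against 165.6 in the next retina (0.831). Plin2 was also high in the choroid of mouse 13 among control + PLX mice, at 5689 against 3612 (0.734). Lpl in the choroid of mouse 18 (Tgfbr2ΔEC + PLX) was 2554 against 1515 (0.781), and that library had the highest adipocyte score of its group, 8.382. Soat1 in the retina of mouse 19 (Tgfbr2ΔEC + PLX) was 686.9 against 409.5 (0.712). Msr1 in the retina of mouse 6 (Tgfbr2ΔEC - PLX) was 128.6 against 28.03 (0.79).

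The response to PLX5622 differed between the tissues by the interaction term for Lpl (-0.937 on the log2 scale) and Cd36 (-1.258), both with the larger fall in the choroid. All 28 alternatives kept both calls, with Lpl between -1.03 and -0.85 and Cd36 between -1.35 and -1.17.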

How the results depend on the processing

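The 6 genes that fell in the choroid over both genotypes stayed past the threshold in all 30 alternatives, which called 6 to 8 members, and no difference of a called member changed sign. In the retina the 1 call, Msr1, became 0 with a pseudocount of 5 and with all genes above 0, and leaving out each mouse gave 0 to 1. In the comparison within Tgfbr2ΔEC choroids leaving out each mouse gave 4 to 7 members, and within control mice 4 to 5. The tissue contrast without PLX5622 gave 9 to 10, Apoc1 being the gene lost, with the sex score as a covariate among others (adjusted p = 0.0505). The mouse as a replicate block changed no call of a member; 10 of 20 choroids correlated best with the retina of their own mouse, and the block's fitted correlation was -0.011.

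Counts over all genes moved more. The genotype count in - PLX choroids, 1, was 303 with those 10 libraries alone, 411 without mouse 15, 2 without mouse 4 or mouse 8 and 0 with a filter at a mean of 10. The fits on those 10 libraries and without mouse 15 kept the mice compared. They changed only the estimate of the spread and the filter on low values. The cause of the other shifts was not tested. The 1 gene called in the choroid genotype comparison with PLX5622 was lost in most alternatives, the sex, neural retina and pigment epithelium scores among them. Fewer calls came in Tgfbr2ΔEC choroids with the neural retina covariate (958 to 535), in control choroids fitted alone (885 to 572) and in the retina with the filter at 10 (254 to 154, control mice 171 to 104). The tissue by diet count of 332 was 620 without mouse 15, and the retina genotype count with PLX5622 went from 0 to 1 without mouse 12. The largest shift of a median of all genes under TMM was -0.0336. Retinal Msr1, near the value of 3 reads, is limited by depth.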
